A study of Homo sapiens with 22 samples.

Results

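The alpha-globin gene cluster near the end of the short arm of chromosome 16 was examined together with the enhancers that lie upstream of it inside NPRL3. Its members were 6 genes, HBZ, HBM, HBA2, HBA1, HBQ1 and NPRL3, and every transposon insertion whose recorded start lay from 60000 to 190000 on chromosome 16 (hg38). Insertions were taken by position only, but members and gene lists were chosen with earlier results of these data known. The position rule gave 6548 of the 52154230 insertions recorded in 20 libraries of K562 cells, an erythroleukemia line. All libraries carried the same barcoded self-reporting transposon, a piggyBac element with a puromycin marker whose transcript runs on into the neighbouring genome. Cells of 10 libraries were electroporated with a plasmid for the hyPBase helper and cells of the other 10 with hyPBase-centrip, and all were under puromycin for 11 days before RNA was taken. Neither helper was fused to a transcription factor. The labels do not say what distinguishes hyPBase-centrip. RNA was isolated from sets of 3 transfections of 1 cell line, so the tests below measure the spread between pooled transfections, and the copy number of the region in these cells was not measured.

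The alpha-globin cluster holds the genes for the alpha-like chains of hemoglobin in the order of their use in development. HBZ codes for the embryonic zeta chain, HBA2 and HBA1 for the same adult alpha chain, and HBM and HBQ1 for the minor mu and theta chains. Erythroid enhancers far upstream, known by their distances from HBZ, drive the cluster. Most of them lie in introns of NPRL3, a gene used in many cell types that codes for a subunit of the GATOR complex, which restrains mTORC1 when amino acids are scarce. Unfused piggyBac transposase inserts the transposon at TTAA. Insertions can therefore be recorded only where the sequence holds a TTAA, and their number was counted here per TTAA site.

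The sites that held most insertions are shown with 25 bases on either side, so that the target that each count refers to can be read. The TTAA is in capitals, and the plus strand of hg38 is given. The first 5 are the most-hit sites of the region in order, and the last 2 are the most-hit sites of the windows 40 and 33 kb upstream of HBZ.
chr16:143031-143084: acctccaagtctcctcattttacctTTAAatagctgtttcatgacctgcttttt
chr16:109255-109308: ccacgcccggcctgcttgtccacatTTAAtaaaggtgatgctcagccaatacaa
chr16:105011-105064: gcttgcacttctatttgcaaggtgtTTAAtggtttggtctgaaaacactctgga
chr16:135324-135377: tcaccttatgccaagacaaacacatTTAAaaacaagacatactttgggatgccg
chr16:145511-145564: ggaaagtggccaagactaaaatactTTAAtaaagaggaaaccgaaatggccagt
chr16:113053-113106: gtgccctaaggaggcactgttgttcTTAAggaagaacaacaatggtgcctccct
chr16:119573-119626: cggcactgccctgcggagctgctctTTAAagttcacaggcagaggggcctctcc

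The region was far denser in insertions than the genome. Its 292 TTAA sites held 22.4 insertions per site over the 20 libraries, against 2.71 per site over chromosomes 1 to 22, X and Y and 2.84 on chromosome 16. In hyPBase libraries the density was 7.63 times that of the genome in the lowest library, 8.31 at the median and 9.83 in the highest, with a mean of 8.52-fold ± 0.786 (SD, n = 10). In hyPBase-centrip libraries it was 7.65, 7.98 and 9.53 times, with a mean of 8.19-fold ± 0.576 (SD, n = 10). Every library lay above the genome density, and each helper gave p = 0.00195, the smallest that the exact two-sided sign-flip permutation test allows (adjusted p = 0.00326 over 15 tests). With each position and orientation counted once per library, whatever the barcode, the means were 5.29-fold and 5.12-fold. The genome density counts all TTAA sites, also those where no read can be placed. Some sites have 50 neighbouring bases on either side that occur once in the genome. Over these the region held 23.25 insertions per site, against 3.18 on chromosome 16. Libraries held from 1509672 to 3596762 insertions in all and from 224 to 427 in the region. The 40 TTAA sites of CDKN2A, a gene that K562 is known to have lost, held 0 insertions, as a check of the cell line.

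**Figure D1:**
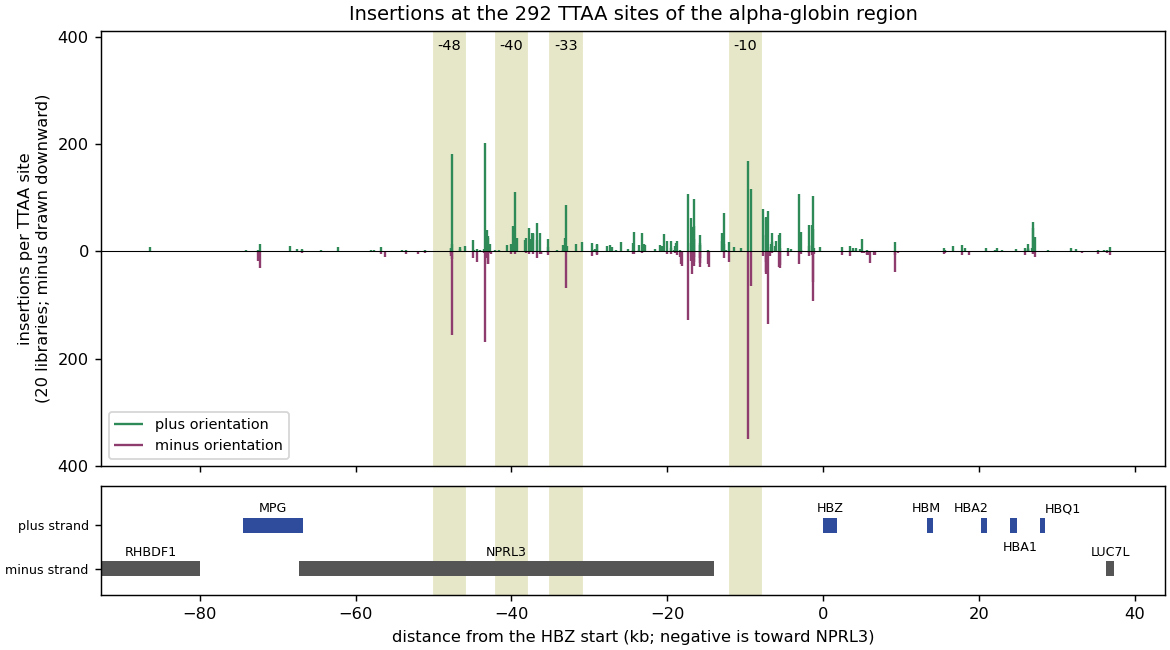
Insertions per TTAA site, summed over 20 libraries, against the distance from the HBZ start in kb, with plus-orientation insertions drawn upward and minus-orientation insertions downward, genes below and the enhancer windows shaded. The highest lines, with 169 plus and 350 minus insertions at the most-hit site, stand from the 48 kb window in NPRL3 to the HBZ start. Those over HBA2 and HBA1, the only globin genes with TTAA sites in the transcripts used here, are low.

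Insertions were concentrated on few sites. Of the 292 sites, 239 (81.8%) were hit in at least 1 library and 20 in every library. The median site held 7 insertions, whereas 19 sites together held 50% of all insertions and the first 5 held 1669 (25.5%). The most-hit site, chr16:143056-143059, lay between NPRL3 and HBZ, 9588 bp upstream of the HBZ start. It held 519 insertions, with 22 in the lowest library, 26 at the median and 31 in the highest. Each library could record at most 26 insertions per orientation at 1 site, 1 for each barcode. At this site the minus orientation held 18 at the median and 20 in the highest library, so insertions that shared a barcode may have been counted as 1. The count followed library size little, with 22 in the smallest library (1509672 insertions in all) and 27 in the largest (3596762). Next came chr16:109280-109283 with 370 insertions and chr16:105036-105039 with 336, both in introns of NPRL3 and both with at least 11 in every library. The fourth, chr16:135349-135352 with 234, was also in an NPRL3 intron, and the fifth, chr16:145536-145539 with 210, lay between NPRL3 and HBZ.

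The most-hit site also stood apart in reads. In hyPBase libraries it had 19.1 reads per insertion ± 6.15 (SD, n = 10), and in hyPBase-centrip libraries 18.5 ± 7.45 (SD, n = 10). The whole libraries had 3.87 ± 0.732 and 3.00 ± 0.540 reads per insertion. The lowest library had 8.35 reads per insertion at this site, and the highest whole library had 5.39. Without this site the region had 4.68 ± 1.15 reads per insertion with hyPBase and 3.77 ± 0.839 with hyPBase-centrip.

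The enhancers were described by windows of 2 kb on either side of the points 48, 40, 33 and 10 kb upstream of the HBZ start, since no enhancer annotation was used here. Of these, 3 lie within NPRL3, and the window at 10 kb lies between NPRL3 and HBZ. The 48 kb window held 411 insertions on 14 sites, and its density over the genome was 6.29-fold in the lowest hyPBase library, 12.1 at the median and 15.1 in the highest (11.7 ± 2.51, SD, n = 10). With hyPBase-centrip these values were 8.45, 10.0 and 11.9 (10.1 ± 1.05, SD, n = 10). A single site, the third of those shown, held 81.8% of its insertions, and its median site held 1.

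The 40 kb window held 273 insertions on 11 sites. Its density was 4.20-fold in the lowest hyPBase library, 8.06 at the median and 12.8 in the highest (7.82 ± 2.48, SD, n = 10), and 8.72, 9.92 and 13.9 with hyPBase-centrip (10.5 ± 1.79, SD, n = 10). These ranges overlapped. The insertions were spread over more sites than at 48 kb, with a median of 19 per site and 42.1% on the most-hit one, chr16:113078-113081.

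The 33 kb window held 224 insertions on 8 sites, all of them hit. Its density was 6.92, 9.93 and 24.4-fold in the lowest, median and highest hyPBase library (11.4 ± 4.95, SD, n = 10) and 5.11, 9.11 and 15.4-fold with hyPBase-centrip (9.51 ± 2.58, SD, n = 10). The site at chr16:119598-119601, 46 bp from the named distance, held 69.2% of them.

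The 10 kb window was the densest of the 4. On only 4 sites it held 718 insertions, or 179.5 per site. Its density was 56.0, 66.4 and 86.7-fold in the lowest, median and highest hyPBase library (68.9 ± 9.27, SD, n = 10) and 52.1, 64.2 and 109-fold with hyPBase-centrip (67.5 ± 16.3, SD, n = 10). Every library was thus denser here than any library was in the other 3 windows. The most-hit site of the region gave 72.3% of these insertions, and the other 3 sites still averaged 66.3 insertions. In the full GENCODE gene record an alternative transcript of HBZ begins upstream and runs over this window. The canonical transcripts used here do not.

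**Figure D2:**
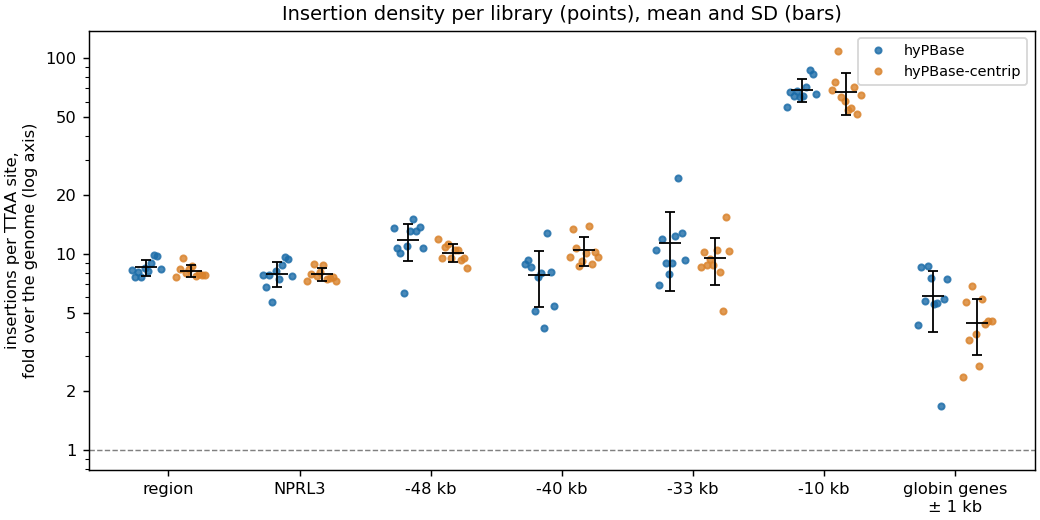
Insertions per TTAA site in each library relative to the genome density of that library, on a log axis, for the whole region, NPRL3, the 4 windows and the globin genes with 1 kb on either side; points are libraries, and bars give the mean and SD of 10. The window at 10 kb lies above 50-fold in every library, and the globin genes have the lowest mean.

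Within NPRL3, the 3 windows were compared with the rest of the gene. The windows held 908 insertions on 33 sites (27.5 per site) and the rest 2546 on 130 sites (19.6 per site). The ratio of the densities was 1.15 in the lowest hyPBase library, 1.35 at the median and 1.95 in the highest (1.42 ± 0.253, SD, n = 10). With hyPBase-centrip it was 1.11, 1.39 and 1.68 (1.40 ± 0.214, SD, n = 10). It lay above 1 in every library (p = 0.00195 for each helper, exact sign-flip permutation test, adjusted p = 0.00326). With windows of 1 kb on either side of the named points the ratio was 2.38 with hyPBase and 2.34 with hyPBase-centrip, and with 3 kb it was 1.15 for both. The call ended when most-hit sites were left out on both sides, which was chosen after seeing the data. Without the most-hit site of the windows and that of the rest the ratio was 1.02 (p = 0.988, exact sign-flip permutation test) and 1.09 (p = 0.232). Without the 3 most-hit sites of the windows and the 12 of the rest, about the same share of each, it was 0.816 (p = 0.0508) and 1.04 (p = 0.881). Counting each position and orientation once per library, so that a site gives at most 2, brought it to 0.952 and 0.970. The median site held 9 insertions in the windows and 7.5 in the rest.

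NPRL3 as a whole had 3454 insertions on 163 sites, 21.2 per site, which placed it at the 98.5th percentile of the 15550 protein-coding genes with at least 20 TTAA sites, whose median was 3.11. Its density was 5.70, 7.79 and 9.64-fold over the genome in the lowest, median and highest hyPBase library and 7.27, 7.63 and 8.93-fold with hyPBase-centrip. The density was not even along the gene. The 39 sites of the first 10 kb from its start, which face the globin genes, held 1215 insertions (31.2 per site). In the bin from 90001 to 100000, toward its other end, 17 sites held 58 (3.41 per site).

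The stretch between NPRL3 and HBZ, which contains the 10 kb window, held 2458 insertions on 47 sites. That was 20.5-fold ± 1.94 (SD, n = 10) over the genome in hyPBase libraries and 18.6-fold ± 1.504 (SD, n = 10) with hyPBase-centrip. Among 291801 bins of 10 kb with at least 5 TTAA sites, the bin from 140001 to 150000 stood at the 99.8th percentile with 54.4 insertions per site, and the bin from 130001 to 140000 at the 99.4th with 36.0. The median bin had 1.37. Density then fell along the cluster. Between HBZ and HBM there were 216 insertions on 25 sites (8.64 per site), between HBM and HBA2 59 on 7 sites (8.43 per site), and between HBA2 and HBA1 11 on 5 sites (2.20 per site). It was higher again between HBA1 and HBQ1, with 195 on 9 sites (21.7 per site), and low between HBQ1 and LUC7L, with 26 on 11 sites (2.36 per site).

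The globin genes themselves offered almost no target. In their canonical transcripts HBZ, HBM and HBQ1 have 0 TTAA sites, as have the pseudogenes HBZP1 and HBAP1. Nothing about these gene bodies can therefore be read from insertions. Sites under the alternative HBZ transcript that runs over the 10 kb window were not counted to HBZ. HBA2 and HBA1 have 2 each, at matching places of the duplicated genes. The first of each pair is shown with 13 bases on either side because all of its neighbouring sequence is shared by both genes, and the second because it contains the stop codon of the alpha chain. The sequence at HBA1 is the same as that at HBA2 in both cases.
HBA2, chr16:173183-173212: ggctctgcccaggTTAAgggccacggcaag
HBA1, chr16:176987-177016: ggctctgcccaggTTAAgggccacggcaag
HBA2, chr16:173584-173613: cctccaaataccgTTAAgctggagcctcgg
HBA1, chr16:177395-177424: cctccaaataccgTTAAgctggagcctcgg

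Only the second site of each gene held insertions, 7 at HBA2 and 4 at HBA1, all in plus orientation. Reads from an insertion can be placed only if the sequence that they run into occurs once in the genome. Sequences of 50 bases that began with the TTAA or ended with it were therefore counted in hg38. At the first sites both sequences occur 2 times. At the second sites the preceding sequence occurs 2 times and the following one once, with 39 of 50 bases shared between HBA2 and HBA1. On chromosome 16, the 8917 sites with only the following sequence unique held 11035 plus and 0 minus insertions, and the 8800 sites with only the preceding one unique held 0 plus and 8798 minus insertions. The 33159 sites with neither unique held 0. An absence at the first HBA sites, or of minus insertions at the second, is therefore not a measurement of the chromatin there.

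With 1 kb on either side, the globin genes held 187 insertions on 13 sites, and the genes differed. Around HBQ1 there were 152 on 5 sites (30.4 per site), 13.4-fold over the genome with hyPBase and 8.86-fold with hyPBase-centrip. Around HBZ there were 24 on 2 sites (12 per site, 2.87-fold and 5.77-fold). HBA2 and HBA1 had 7 and 4 insertions on 3 sites each, most of them not unique on both sides. HBM had 0 sites in its window. The density of the 13 sites together was compared with that of the other 279 sites of the region. The ratio was 0.163, 0.687 and 1.14 in the lowest, median and highest hyPBase library (0.728 ± 0.294, SD, n = 10, p = 0.0176, adjusted p = 0.0264, exact sign-flip permutation test) and 0.296, 0.556 and 0.848 with hyPBase-centrip (0.537 ± 0.186, SD, n = 10, p = 0.00195, adjusted p = 0.00326). The call ended for both helpers over sites unique on both sides, at 1.06 (p = 0.842) and 0.825 (p = 0.0605). It also ended for hyPBase when barcodes were collapsed (0.949, p = 0.492) and when the genes were taken with 2 kb on either side (0.956, p = 0.402). With the gene bodies alone, whose 4 sites are those of HBA2 and HBA1 with shared sequence, the ratio was 0.234 and 0.139 (p = 0.00195 for each helper, exact sign-flip permutation test). This cannot be read as a depletion, since reads could be placed for only 2 of their 8 site orientations. Outside the 1 kb windows it was 549 of 558. Per placeable orientation the gene bodies held 5.5 insertions, the 1 kb windows 10.4 and the sites outside them 11.6.

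The other genes of the region gave smaller values than NPRL3. MPG, which codes for a DNA glycosylase that removes alkylated bases, had 94 insertions on 11 sites. The part of RHBDF1, an inactive rhomboid gene, in the region had 14 on 8 sites. LUC7L, a splicing factor gene on the far side of the cluster, had 21 insertions on the 3 sites inside the region and 2.72 per site over its whole length, which 43.3% of those genes did not exceed.

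Sites also differed by the bases next to the TTAA. The 63 sites with T before and A after it (TTTAAA) held a median of 18 insertions, the 126 sites with only one of these bases 6, and the 103 sites with neither 2. This is a description over sites of 1 region, and the sites share libraries.

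Insertions in plus orientation outnumbered those in minus orientation. Of the 6548, 4102 were plus and 2446 minus. The plus share was 59.6% in the lowest hyPBase library, 61.95% at the median and 67.7% in the highest (62.8% ± 2.95, SD, n = 10), and 55.6%, 62.1% and 69.5% with hyPBase-centrip (62.1% ± 3.77, SD, n = 10). Every library was above 50% (p = 0.00195 for each helper, exact sign-flip permutation test, adjusted p = 0.00326). On chromosome 16, sites unique on both sides had 49.1% plus insertions.

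The orientation differed along the region, and in short stretches nearly all insertions pointed one way. Of the 79 sites with at least 20 insertions, 21 had at least 90% plus and 4 at least 90% minus. The 40 kb window was 94.1% plus. Within it, the 4 sites from 112527 to 113379 held 197 plus and 9 minus insertions, and the most-hit one held 111 plus and 4 minus. The 48 kb window had 54.0% plus and the 33 kb window 67.9%. The 10 kb window leaned the other way with 41.9% plus, and its most-hit site held 169 plus and 350 minus insertions. Stretches of mostly minus insertions were short. The 3 sites from 134304 to 134514 in NPRL3 held 4 plus and 62 minus insertions, and the 8 sites from 158317 to 159270, between HBZ and HBM, held 2 plus and 47 minus. Between HBA1 and HBQ1 the share was 85.6% plus. These stretches were chosen after their values were seen.

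**Figure D3:**
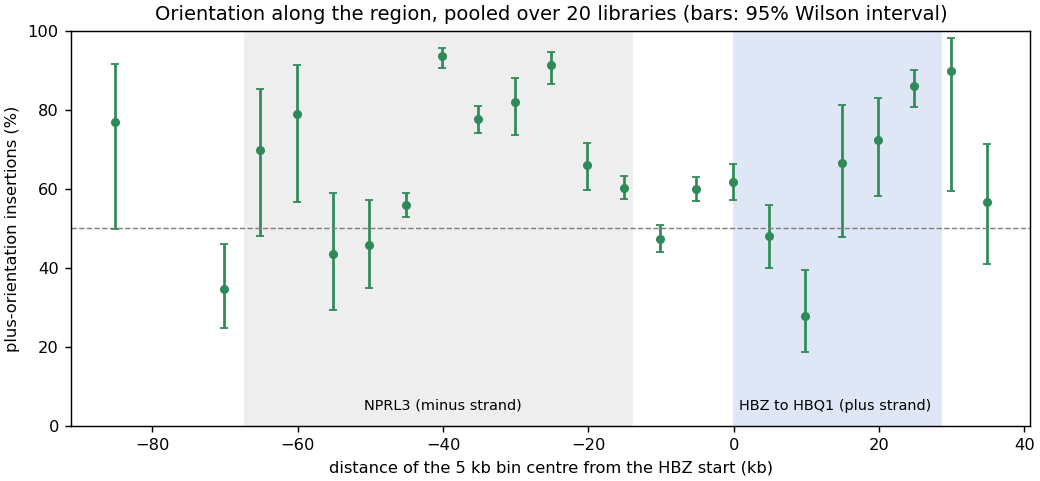
Share of plus-orientation insertions in bins of 5 kb with at least 10 insertions, pooled over 20 libraries, against the distance of the bin centre from the HBZ start; bars are 95% Wilson intervals and cover counting error only. The bin that contains the 40 kb window stands at 93.7%, and the bin between HBZ and HBM that starts at 160 kb of the chromosome stands at 27.9%.

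NPRL3 is transcribed from the minus strand, so plus insertions in it point against the gene. The share of insertions in the direction of NPRL3 was 27.5%, 33.7% and 38.6% in the lowest, median and highest hyPBase library (33.6% ± 3.87, SD, n = 10) and 28.02%, 33.7% and 40.7% with hyPBase-centrip (34.2% ± 3.97, SD, n = 10). It lay below 50% in every library (p = 0.00195 for each helper, exact sign-flip permutation test, adjusted p = 0.00326). Over all protein-coding genes the share was 30.8% ± 0.455 and 32.2% ± 0.282 (SD, n = 10 each). The difference of NPRL3 from all genes was 2.84 percentage points ± 3.85 with hyPBase (p = 0.0566, adjusted p = 0.0772) and 2.07 ± 3.91 with hyPBase-centrip (p = 0.131, adjusted p = 0.164), which did not pass the exact sign-flip permutation test.

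The helpers were then compared, the only contrast among the 20 libraries used here. The region took 116, 126 and 149 of every 1000000 insertions in the lowest, median and highest hyPBase library (130 ± 11.9, SD, n = 10) and 116, 121 and 145 with hyPBase-centrip (124 ± 8.75, SD, n = 10). The ranges overlapped, and the difference of -5.07 per 1000000 did not pass a two-sided permutation test with 100000 resamples (p = 0.293, adjusted p = 0.338). Nor did the difference in plus share (-0.717 percentage points, p = 0.641, adjusted p = 0.687) or in the same-strand share of NPRL3 (0.651 percentage points, p = 0.712, adjusted p = 0.712). The 3 libraries with the highest region share, hyPBase replicates 8 and 9 and hyPBase-centrip replicate 3, were also the smallest of the series. The part of library size in this was not tested.

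For each of 14157 protein-coding genes, insertions were compared between helpers by the quasi-likelihood test of edgeR, and p-values were adjusted by Benjamini-Hochberg. The test called 1.75% of the genes, with 0.6% higher and 1.15% lower with hyPBase-centrip. NPRL3 was the only member with enough insertions in its gene body to be tested, and it did not pass. Its level was 67.4 insertions per 1000000 ± 10.4 (SD, n = 10) in hyPBase libraries. In hyPBase-centrip libraries it was 66.4 ± 5.19 (SD, n = 10). The log2 difference was -0.015 (SE 0.053, 95% interval -0.12 to 0.09, edgeR adjusted p = 0.946). HBZ, HBM, HBA2, HBA1 and HBQ1 were below the filter of 5 insertions in at least 10 libraries. Over the 20 libraries, the genes whose insertions per 1000000 followed those of NPRL3 most closely were FBLN5 (Pearson r = 0.787), PLA2G2C (0.782) and RETSAT (0.775), among 13941 genes. This is a description, and all values of a library share its depth.

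Of the 13 bins of 10 kb in the region, 7 could be tested, and edgeR called 0 of them, against 0.421% of all 133945 bins tested (0.0903% higher and 0.331% lower with hyPBase-centrip). At an unadjusted p below 0.05 it was 1 of 7, against 9.52% of all bins. DESeq2 called 0 and had 0 at an unadjusted p below 0.05, against 5.90% of all bins, with 4 of the 7 adjusted p-values not given. The smallest adjusted p belonged to the bin from 170001 to 180000, which contains HBA2 and HBA1, with 5.33 insertions per 1000000 ± 1.71 (SD, n = 10) with hyPBase against 4.16 ± 1.06 (SD, n = 10) with hyPBase-centrip (log2 difference -0.36, SE 0.18, p = 0.0461, edgeR adjusted p = 0.511). The only bin of 10 kb with a positive difference was that from 110001 to 120000 (0.062, SE 0.095, edgeR adjusted p = 0.902). In bins of 5 kb its parts differed in sign. The part from 110001 to 115000, which contains the 40 kb window, gave 0.38 (SE 0.15, edgeR adjusted p = 0.334). The part from 115001 to 120000 gave -0.14 (SE 0.12, edgeR adjusted p = 0.774). The bins of 5 kb from 105001 and 155001 were also positive (0.015 and 0.26, edgeR adjusted p = 0.979 and 0.778). In simulated counts of bins drawn from the whole genome, the test found 79.5% of bins changed 2-fold and 26.5% of those changed 1.5-fold. The simulation gave every bin the same dispersion, and the recovery at the counts of the 7 bins of the region was not measured.

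**Figure D4:**
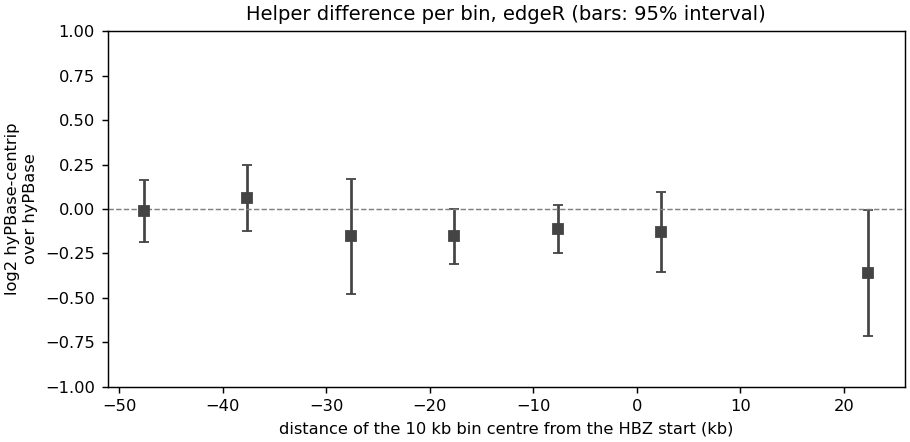
Log2 difference of insertions between hyPBase-centrip and hyPBase in the 7 tested bins of 10 kb, against the distance of the bin centre from the HBZ start. Bars are approximate 95% intervals computed from the edgeR test statistic. The 6 bins other than that with the HBA genes lie between -0.15 and 0.062.

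Other genes of the erythroid program were taken as a list of 21, among them the beta-globin genes, and GATA1, TAL1, KLF1 and NFE2, which code for erythroid transcription factors. Of these, 17 had enough insertions to be tested, and edgeR called 0 as higher and 0 as lower with hyPBase-centrip. At an unadjusted p below 0.05 there were 5 of the 17, against 13.7% of all genes tested by edgeR. DESeq2 called 0 and had 4 of the 17 at an unadjusted p below 0.05, against 9.81% of all genes. It gave no adjusted p-value for 14. HBD, GATA1, LDB1 and AHSP were below the filter. The median log2 difference of the 17 was 8e-04, against 3e-04 over all genes tested, and the smallest adjusted p was 0.0711 (edgeR). It belonged to HBB, the gene for the adult beta chain, whose log2 difference was -0.49. With 1 kb on either side of each gene, HBB was called lower with hyPBase-centrip (log2 difference -0.31, edgeR adjusted p = 0.0167). Over the edgeR alternatives its adjusted p ran from 0.0167 to 0.956, and no other alternative called a gene of the list.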

How the data were processed

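Insertions of a self-reporting piggyBac transposon in K562 cells were recorded in 20 libraries, 10 for each of the helpers hyPBase and hyPBase-centrip. In the deposited files, 1 per library, each line is an insertion with its hg38 position, orientation, barcode and raw read count. The submitters' processing notes name Trimmomatic, BWA and SAMtools, with no versions or filters. All insertions on chromosomes 1 to 22, X and Y lay on a TTAA of hg38. Each line was counted as 1 insertion. Genes were the canonical transcripts of GENCODE 44. Another 2 libraries, deposited under the further name ClarkMut, carry labels that name both helpers and were left out of every comparison.

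Densities were divided by the genome density of the same library, and 0.5 insertions were used where a library had 0. Single values were tested by exact two-sided sign-flip permutation within a helper and by permutation with 100000 resamples between helpers, with Benjamini-Hochberg adjustment over 15 tests. Helpers were compared per gene and per 10 kb bin by the quasi-likelihood test of edgeR 4.0.16 under R 4.3.3 (TMM, at least 5 insertions in at least 10 libraries, adjusted p below 0.05). The SE of an edgeR difference was derived from its F statistic, and 95% intervals from that SE and the normal quantile, as approximations. DESeq2 1.42.0 was an alternative. The edgeR fit was tested on simulated counts, where it recovered 97% of genes changed 2-fold and 73.5% of those changed 1.5-fold over 14157 genes. The simulation gave every gene the same dispersion, and likewise every bin, so recovery in the real counts may differ. The figure given for bins in the text is from 30000 bins. Python 3.11.15, numpy 2.4.6, scipy 1.17.1 and matplotlib 3.10.9 were used. Wilson intervals are at 95% and cover counting error only.

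Named items were the 6 member genes, the other genes of the region, the 4 windows, the 5 most-hit sites, the bin with the smallest adjusted p in each direction and the 3 genes most like NPRL3. Members and lists were chosen with earlier results of these data known. Alternatives covered reads per insertion, barcodes, unique sites, window widths, normalization, filters, a replicate block and left-out libraries or sites.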

Additional observations from a re-analysis of the deposited data

Results flagged for a closer look

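In groups of 10 libraries, a value was marked when its gap to the nearest other library was too wide a part of the range of the group by Dixon's criterion. Of the 20 groups of values checked, 4 had such a library, and chance marks about 1 in 20. In the 33 kb window, hyPBase replicate 8 held 10.1 insertions per 1000000 and the next library 5.30, and hyPBase-centrip replicate 9 held 6.40, with 4.36 in the next. In the 10 kb window, hyPBase-centrip replicate 3 held 22.6 insertions per 1000000 and the next library 15.8. At the most-hit site of the region, which lies in that window, the same library held 15.9 per 1000000 and the next 11.5. As plain counts it did not stand apart. It held 37 insertions in the window, against a median of 37.5 with hyPBase-centrip, and 26 at the site, also the median of the 20 libraries. It held only 1638175 insertions in all. Without hyPBase-centrip replicate 3, no call on the region changed.

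The 2 libraries whose labels name both helpers held insertions in the region as well. One had 111 insertions per 1000000 there (7.30-fold over the genome density, 65.9% in plus orientation) and the other 130 (8.56-fold, 61.4%). They were marked because no comparison used them.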

How the results depend on the processing

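Of 155 alternative values, 131 were counted as unchanged. Most of these kept direction and side of the threshold. Numbers of genes or bins called were instead counted as unchanged when they stayed within a set fold of the main number. The cause of the other shifts was not tested, except where the alternative's construction gives it. The comparison of the enhancer windows with the rest of NPRL3 reversed with barcodes collapsed, where a site gives at most 2 insertions per library (0.952-fold with hyPBase, 0.970-fold with hyPBase-centrip). Without its most-hit sites, alternatives added after seeing the data, the call ended when 1 site was left out of the windows and 1 of the rest (1.02 with hyPBase, where the mean log2 ratio fell below 0, and 1.09) and when an equal share was left out of both (0.816 and 1.04). Leaving out the most-hit site of each window only, which can only lower the ratio, gave 0.454 and 0.559. Leaving out the most-hit site of the region and each library in turn were also added after seeing the data. The globin windows lost their call over sites unique on both sides (1.06 and 0.825) and, for hyPBase, with barcodes collapsed (0.949) and with 2 kb on either side (0.956). The excess of the same-strand share in NPRL3 over all genes had an unadjusted p below 0.05 in some alternatives. These were unique sites for hyPBase (3.01 percentage points, p = 0.0371, exact sign-flip permutation test) and at least 2 reads per insertion for hyPBase-centrip (3.60, p = 0.0332, same test). These p-values were not adjusted. With at least 2 reads the helper difference in region share turned to 2.48 per 1000000, that at NPRL3 to 0.053 on the log2 scale and those of the bins from 100001, 140001 and 150001 to 0.14, 0.012 and 0.029. Without the filter on low counts the first of these bins gave 0.013. None of these passed.

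Over all genes, edgeR called 248 of 14157 (1.75%), but 22 of 13494 (0.163%) with barcodes collapsed. Over all bins it called 564 of 133945 (0.421%). Without the filter it called 284 of 280665 (0.101%), and with at least 2 reads 321 of 92390 (0.347%). With barcodes collapsed it called 0 of 125592, of which 5617 (4.47%) had an unadjusted p below 0.05. DESeq2, run with barcodes kept apart, called 545. A fit with the replicate number as a block called 245 genes and 495 bins and changed no call on a member. Numbers were not treated as pairing libraries, since the correlations of same-numbered libraries ran from -0.029 to 0.036. Leaving out each library in turn moved the helper difference in region share from -7.33 to -2.86 per 1000000. The globin gene bodies are limited by their 4 TTAA sites, whose neighbouring sequence is largely shared.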
